A study of Mus musculus with 24 samples.

Results

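The genes described here copy the chromosomes and then divide them. A list of 41 mouse genes was drawn up by name: 17 act in S phase, 21 in G2 and mitosis, and 3 are transcription factors of the division program. Each gene was read from the probe set that carries its symbol alone and has the highest mean in its table. That gave 40 of the 41 genes on both array platforms, of 19938 genes in the larger table and 18194 in the smaller. Ccnb1 was not analysed here.

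Before a cell divides, the origin recognition machinery, Cdc6 and Cdt1 load the MCM helicase onto DNA at origins, and cyclin E with its kinase helps start synthesis there. E2F factors drive many of these S phase genes, while the MuvB complex, with B-Myb (Mybl2) and Foxm1, acts later on genes for spindle assembly, chromosome condensation and cytokinesis. Embryonic stem cells divide rapidly with a short first gap phase, neural progenitors still divide, and neurons have left the cycle.

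The study followed mouse embryonic stem (ES) cells through neuronal progenitors (NP) to terminal neurons (TN) in vitro and asked what the loss of REST, a repressor of neuronal genes, changes on the way. In the Black Agouti 129 strain, 3 arrays, lettered a to c, were made of each of 6 groups: RESTko ES, RESTko NP and RESTko TN cells, RESTwt ES and RESTwt NP cells, and RESThet TN cells. The TN comparison therefore sets knockout against heterozygous cells, and a TN minus NP step outside the knockout also joins 2 genotypes. Wildtype cells of a mixed 129Sv-C57Bl/6 background gave 2 arrays at each of the 3 stages on another Affymetrix platform, which makes 24 arrays in all. Differentiation followed the Bibel protocol, which goes through embryoid bodies and retinoic acid. The labels do not say how many ES cell lines stand behind a genotype or whether arrays of a group came from separate cultures, so p-values measure only the spread between these arrays. Values are log2 probe set signals and carry no read depth, so the number of arrays limits the precision. A gene was called where limma gave a Benjamini-Hochberg adjusted p under 0.05 over all genes of its table.

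Rest, the targeted gene, read 8.63, 8.53 and 8.66 on the ES arrays labelled RESTko and 8.95, 8.99 and 8.95 on the RESTwt ES arrays, a difference of -0.36 (adjusted p = 0.00234). In NP cells the difference was -0.01 (adjusted p = 0.958), and in TN cells it was 0.34 (adjusted p = 0.0187), opposite to the label. Which exons the probe set covers is not given in the sources used here, so RESTko below means the arrays labelled RESTko, and genotype directions rest on the labels. All 8 ES markers were lower in NP than in ES cells in each background, all 6 progenitor markers were higher in NP than in ES cells, and 9 of 10 neuronal markers were higher in TN than in NP cells in each background. Markers of other cells moved with the stages too. All 4 astrocyte markers were higher at both TN steps of the larger table, and of 7 fibroblast and smooth muscle markers 5 were higher, with Dcn at 6.05 and Tagln at -1.61 in the RESTko step (1 lower) and Dcn at 4.56 and Tagln at -2.85 between RESThet TN and RESTwt NP cells (2 lower). Of 6 endoderm markers, 5 were lower at both TN steps. At the step from ES to NP cells all 6 endoderm markers were higher in RESTko (median 1.61) and in RESTwt cells (median 1.65), and the fibroblast list had 5 higher and 2 lower in RESTko and 7 higher in RESTwt cells. The part of these cells in the results was not tested. In such bulk samples fewer dividing cells and less RNA per cell cannot be told apart. ES and NP titles of the larger table carry the prefix 1 and TN titles the prefix 2, without explanation, so that prefix and the TN stage cannot be told apart.

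Promoter sequence is shown first, since S phase and mitosis genes differ in the words around their start sites. Whether these words have a part in the stage steps was not tested. RefSeq windows of the GRCm38.p6 assembly, 250 bases before to 50 after each start, were found for 33 of the 40 measured members and not for Ccne2, Mcm4, Gins1, Gins2, Ccna2, Aurkb and Foxm1. An E2F word was TTGGCGC or else TTCCCGC or else TTGCCGC or else TTCGCGC. A cell cycle homology region (CHR) word was TTTGAA or else TTCGAA, and the third kind was CCAAT. All were searched on both strands with overlaps allowed. The 5 windows below were cut to 200 bases before and 30 after the start, and capitals mark the words. Mcm3 and Mcm5 are S phase genes from chr1:20820283-20820512 (minus strand) and chr8:75109309-75109538 (plus strand). Ttk and Cdca8, mitosis genes, come from chr9:83834489-83834718 (plus strand) and chr4:124936888-124937117 (minus strand). Cdk1, from chr10:69352883-69353112 (minus strand), holds all 3 kinds of word.
Mcm3: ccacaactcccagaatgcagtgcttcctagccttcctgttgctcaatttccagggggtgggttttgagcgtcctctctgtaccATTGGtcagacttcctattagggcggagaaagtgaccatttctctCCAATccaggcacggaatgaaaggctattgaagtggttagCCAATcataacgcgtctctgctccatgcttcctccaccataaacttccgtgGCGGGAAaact
Mcm5: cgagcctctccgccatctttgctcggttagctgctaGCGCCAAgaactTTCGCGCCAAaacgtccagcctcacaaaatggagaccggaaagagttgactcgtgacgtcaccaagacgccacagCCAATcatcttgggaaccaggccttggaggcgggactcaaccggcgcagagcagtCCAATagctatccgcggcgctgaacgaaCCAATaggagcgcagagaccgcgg
Ttk: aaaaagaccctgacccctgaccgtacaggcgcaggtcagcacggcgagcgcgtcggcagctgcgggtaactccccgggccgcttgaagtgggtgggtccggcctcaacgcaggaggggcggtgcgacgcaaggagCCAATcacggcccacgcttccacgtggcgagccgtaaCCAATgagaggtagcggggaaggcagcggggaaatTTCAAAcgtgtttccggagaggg
Cdca8: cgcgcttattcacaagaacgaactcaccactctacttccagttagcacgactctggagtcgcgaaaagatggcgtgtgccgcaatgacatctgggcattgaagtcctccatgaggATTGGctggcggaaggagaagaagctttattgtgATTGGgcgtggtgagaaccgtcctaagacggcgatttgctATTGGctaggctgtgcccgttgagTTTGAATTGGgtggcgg
Cdk1: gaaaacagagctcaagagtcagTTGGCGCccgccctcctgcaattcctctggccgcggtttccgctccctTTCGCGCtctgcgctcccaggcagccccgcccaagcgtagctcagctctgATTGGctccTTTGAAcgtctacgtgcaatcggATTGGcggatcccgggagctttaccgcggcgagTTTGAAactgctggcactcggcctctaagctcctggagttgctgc
In these stretches Mcm5 had 3 E2F words, 2 of which share bases, and 3 CCAAT words, and Mcm3 had 1 E2F word and 3 CCAAT words, with no CHR word in either. Ttk had 1 CHR and 2 CCAAT words, and Cdca8 had 1 CHR and 4 CCAAT words, with no E2F word in either.

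Over all members with a window, E2F words stood in 9 of 13 S phase promoters (69.2%) and in 4 of 18 mitosis promoters (22.2%), against 9.57% of all 32851 windows in the table. CHR words ran the other way. They stood in 15 of 18 mitosis promoters (83.3%) and in 2 of 13 S phase promoters (15.4%), against 19.2% of all windows. CCAAT was found in 17 of 18 mitosis promoters (94.4%), in 8 of 13 S phase promoters (61.5%) and in 37.4% of all windows. CHR and CCAAT together stood in 15 of 18 mitosis promoters (83.3%) and 7.52% of all windows. Of the regulators, E2f1 and Mybl2 had a window and neither held an E2F word of this spelling. Both windows lay inside the gene's annotated span, so the bases before its outer start were not searched. The E2f1 window ended at 154569676 and the gene, on the minus strand, at 154569892. The Mybl2 window began at 163054385 and the gene, on the plus strand, at 163054327. Windows of Cdc6, Aurka and Ect2 lay inside their genes as well. A match is a description of the letters and not a binding site, and a gene with more than 1 window was counted where any of them held the word.

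**Figure D1:**
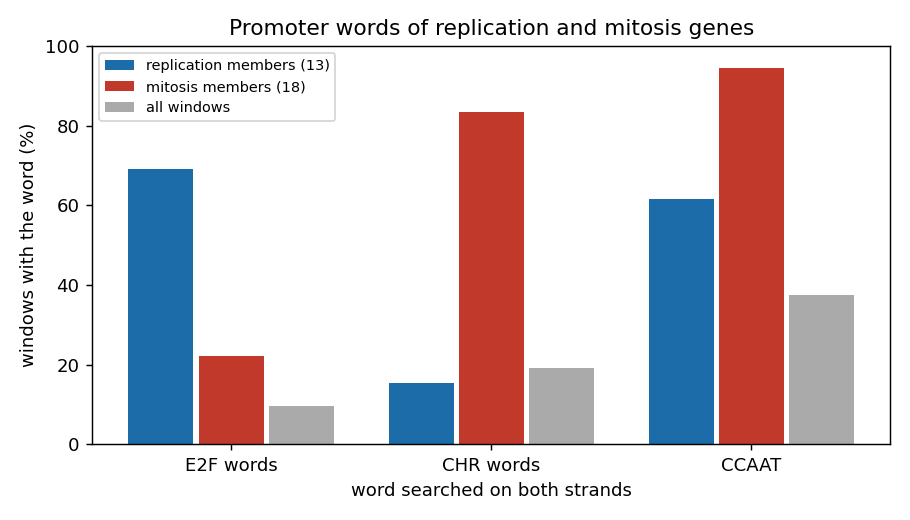
Share of promoter windows (percent, 250 bases before to 50 after the start) that hold E2F, CHR or CCAAT words, for S phase (replication) members, mitosis members and all windows of the table. E2F words are in 69.2% of S phase and 22.2% of mitosis promoters, and CHR words in 15.4% and 83.3%.

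Across the larger table the members followed the stages: high in ES cells, lower on average in NP cells, and far lower in TN cells. Each gene was centred on its own mean over the 18 arrays and the centred values were averaged over the 40 members. This average read 1.29, 1.22 and 1.26 in RESTko ES cells, 0.52, 0.76 and 0.66 in RESTko NP cells and -2.27, -1.75 and -2.07 in RESTko TN cells. It read 1.28, 1.25 and 1.19 in RESTwt ES cells, 0.58, 0.86 and 0.83 in RESTwt NP cells and -1.58, -2.09 and -1.93 in RESThet TN cells. No array of one stage reached into the range of another, while the genotypes overlapped at each stage. The spread between arrays grew along the way: the median SD of a member was 0.07 in RESTko ES, 0.12 in RESTko NP and 0.26 in RESTko TN cells, and 0.05, 0.15 and 0.33 in RESTwt ES, RESTwt NP and RESThet TN cells.

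**Figure D2:**
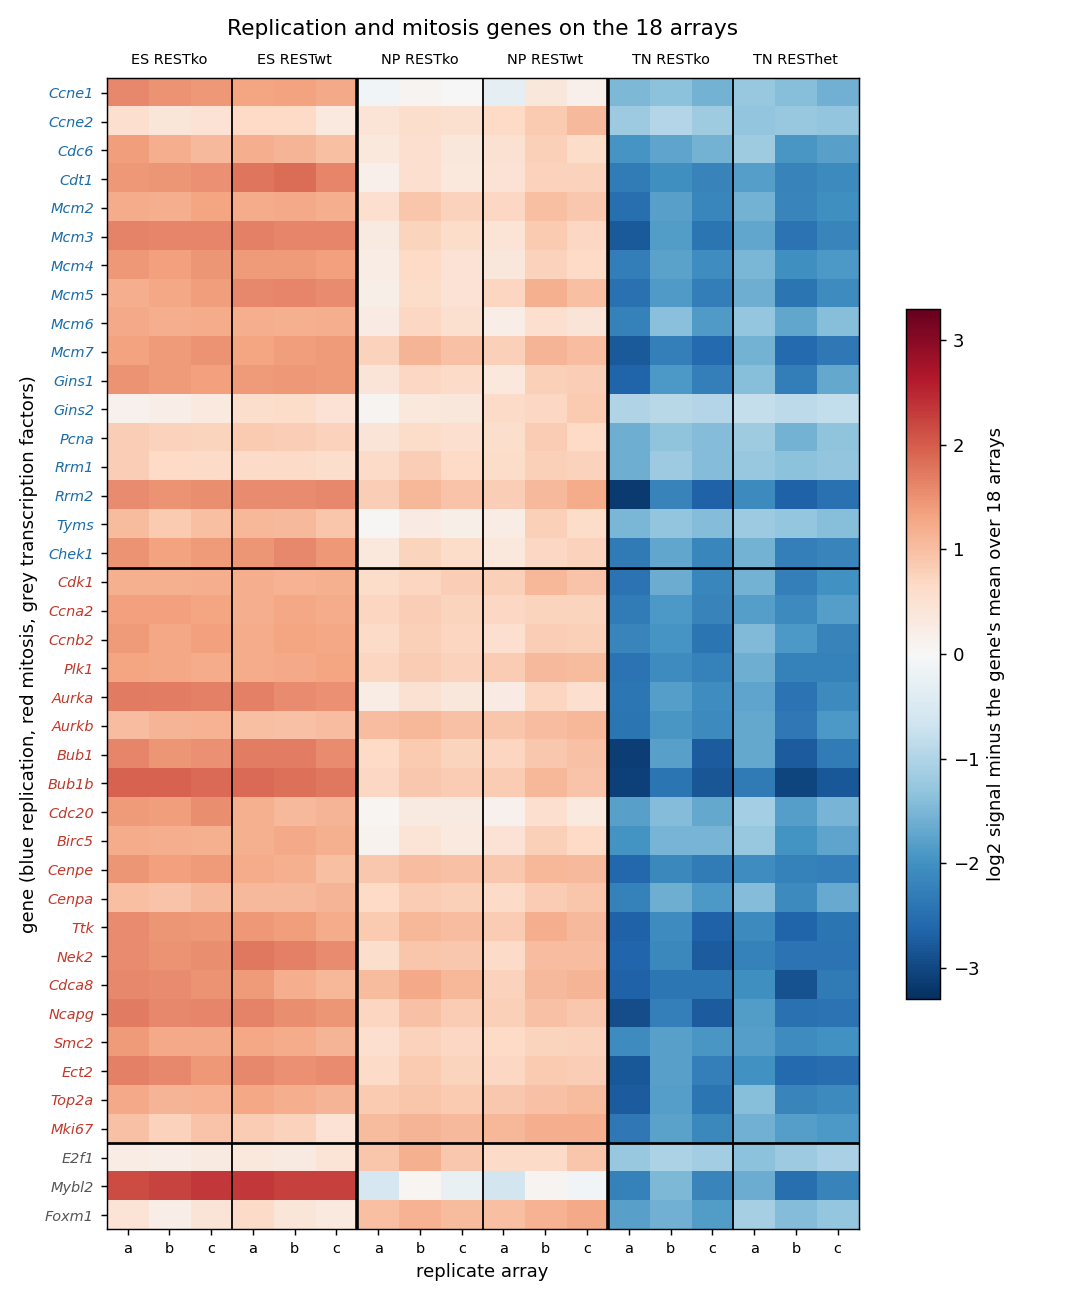
Heat map of the 40 measured members (rows, grouped as S phase, mitosis and regulator genes) on the 18 arrays (columns, by stage and genotype). Colour is log2 signal minus the gene's mean over the 18 arrays; all members are low in the 6 TN arrays, and Mybl2 is already low in NP cells.

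The step from ES to NP cells was mixed. In RESTko cells 31 members were called lower (33.9% of all genes were) and 2 higher (32.2% of all genes), and 7 were not called, with a median difference of -0.63 over the members and -0.04 over all genes. In RESTwt cells 23 were called lower (36.1% of all genes) and 4 higher (31.0%), and 13 were not called, with a median of -0.51 over the members and -0.07 over all genes. The scale mattered here. Centring each array on its median lowered every first-step difference by 0.34 in RESTko and 0.33 in RESTwt cells: 37 members were then lower and 2 higher in RESTko cells (60.9% and 19.9% of all genes), and 35 lower and 1 higher in RESTwt cells (61.4% and 19.7%). It made Aurkb, Ccne2, Cenpa, Gins2, Rrm1 and Top2a lower in RESTko cells, and Aurkb, Cdca8, Cdk1, Cenpa, Cenpe, Mcm2, Mcm7, Pcna, Plk1, Rrm1, Top2a and Ttk lower in RESTwt cells. Quantile normalization ended the lower calls of Bub1, Cdk1, Mcm2, Mcm7, Pcna, Plk1 and Rrm2 in RESTko and of Bub1, Ccnb2, Mcm5 and Rrm2 in RESTwt cells. S phase and mitosis genes had similar counts here: 14 of 17 and 16 of 20 were called lower in RESTko cells, and 11 of 17 and 11 of 20 in RESTwt cells. Their medians were -0.79 and -0.61 in RESTko and -0.54 and -0.51 in RESTwt cells. These counts do not compare the genotypes; the test of that difference is given with the genotypes.

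The step from NP to TN cells lowered every measured member. All 40 were called lower in RESTko cells, where 29.2% of all genes were, and all 40 were lower in RESThet TN than in RESTwt NP cells, where 29.9% of all genes were. Adjusted p was at most 1.57e-06 in the first and 3.60e-07 in the second. The median difference was -2.80 in RESTko cells and -2.65 between RESThet TN and RESTwt NP cells, against 0.13 and 0.14 over all genes on the deposited scale. In RESTko cells the members ran from -3.63 for Rrm2 to -1.22 for Gins2, and in the other comparison from -3.69 for Bub1b to -1.50 for Ccne1. For each of the 40 genes the 6 TN arrays lay below the 6 NP arrays. The share of all genes that separated in this way is not given here.

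By class median, which is a description with no test, mitosis genes stood further below their NP level than S phase genes did. Their median difference was -3.10 in RESTko cells, with quartiles at -3.304 and -2.76, while S phase genes had a median of -2.49 with quartiles at -2.84 and -1.99. Between RESThet TN and RESTwt NP cells the medians were -2.97 for mitosis and -2.40 for S phase genes. The TN array medians over all genes were 5.41 to 5.49. Ttk and Cdca8 of the mitosis genes and Ccne2 of the S phase genes lay under them on every TN array. The part of such low signals in the sizes and in the class difference was not tested. The gap between the class medians was -0.60 in RESTko cells and -0.57 in the other comparison, and over 29 alternative settings it ranged from -0.67 to -0.53 and from -0.70 to -0.50. Many of these settings cannot move the gap, among them median centring and leaving out an array of another group. Their number is therefore no measure of its stability. Array by array, the mitosis average minus the S phase average was 0.22, 0.21 and 0.19 in RESTko ES, 0.32, 0.20 and 0.25 in RESTko NP and -0.38, -0.29 and -0.38 in RESTko TN cells. It was 0.12, 0.07 and 0.09 in RESTwt ES, 0.23, 0.12 and 0.14 in RESTwt NP and -0.31, -0.41 and -0.37 in RESThet TN cells. Since each gene is centred on its own mean, the sign of this value has no meaning of its own, and only its change between stages can be read.

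**Figure D3:**
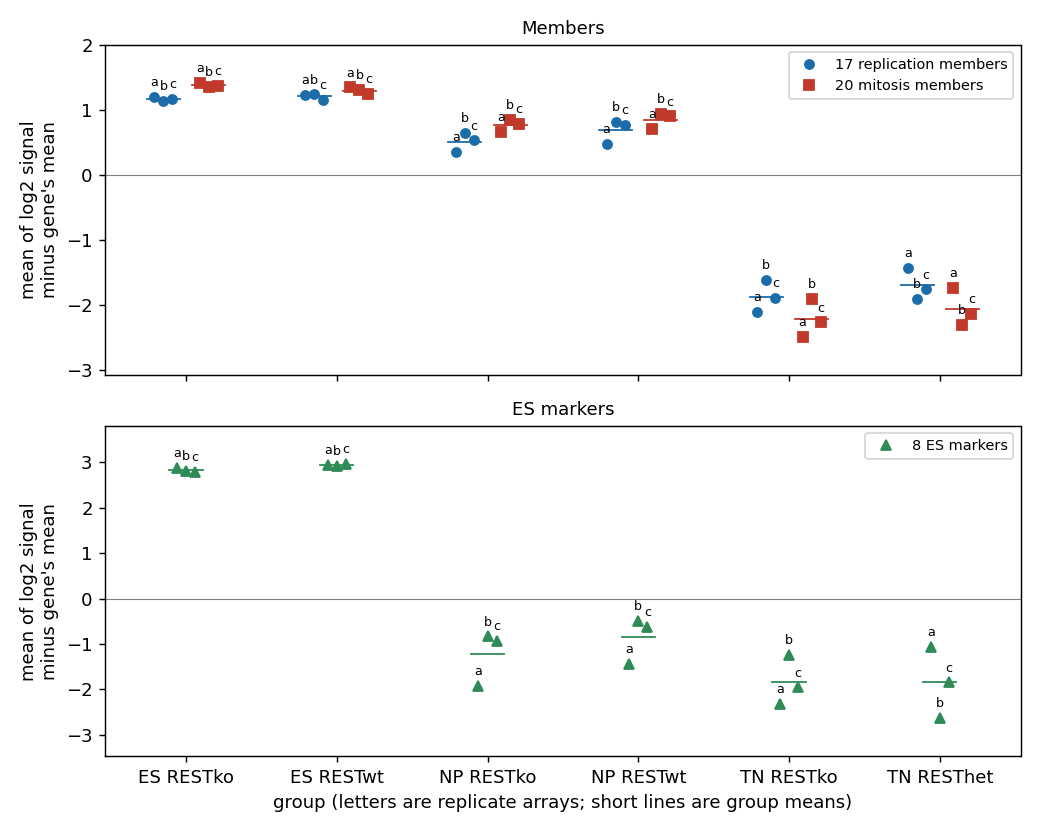
Mean over genes of log2 signal minus the gene's mean over the 18 arrays, on each array (points, with group means as lines), by stage and genotype: the 17 S phase (replication) and 20 mitosis members above, and 8 ES markers below. Both member classes are lowest on the 6 TN arrays; where the classes cross is set by the centring.

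The 3 transcription factors parted company at the NP stage. Mybl2, the B-Myb protein that joins MuvB at promoters of late cell cycle genes, read 10.54, 10.63 and 10.72 in RESTko ES, 7.84, 8.45 and 8.14 in RESTko NP and 6.16, 6.92 and 6.23 in RESTko TN cells. It read 10.73, 10.65 and 10.66 in RESTwt ES, 7.79, 8.47 and 8.30 in RESTwt NP and 6.75, 5.90 and 6.20 in RESThet TN cells. It fell at both steps and, of all members, by most at the first: NP minus ES was -2.48 in RESTko (SE 0.22, adjusted p = 1.32e-08, 5.60-fold lower) and -2.49 in RESTwt cells (adjusted p = 1.38e-08).

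Foxm1, which activates genes of G2 and mitosis, went the other way at first. It read 7.55, 7.35 and 7.55 in RESTko ES, 8.10, 8.27 and 8.16 in RESTko NP and 5.31, 5.52 and 5.27 in RESTko TN cells, and NP minus ES was 0.70 (adjusted p = 1.22e-05). In RESTwt ES cells it read 7.75, 7.52 and 7.44 and in RESTwt NP cells 8.12, 8.27 and 8.36, a difference of 0.68 (adjusted p = 1.71e-05). All NP arrays lay above all ES arrays for Foxm1, and the TN step then lowered it, with a difference of -2.81 in RESTko cells and -2.40 between RESThet TN (6.01, 5.70 and 5.83) and RESTwt NP cells. E2f1, an activating E2F factor, also rose in NP cells: it read 7.16, 7.12 and 7.21 in RESTko ES, 7.82, 8.09 and 7.81 in RESTko NP and 5.66, 5.86 and 5.77 in RESTko TN cells. The E2f1 values were 7.27, 7.20 and 7.36 in RESTwt ES, 7.54, 7.55 and 7.83 in RESTwt NP and 5.56, 5.72 and 5.84 in RESThet TN cells. NP minus ES was 0.74 in RESTko (adjusted p = 2.90e-06) and 0.37 in RESTwt cells (adjusted p = 0.00342), where median centring of the arrays ended the call (0.04, adjusted p = 0.735), and TN minus NP was -2.14 in RESTko cells.

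Among S phase genes, those that license origins fell at both steps. Cdt1, which loads the MCM helicase with Cdc6, read 10.07, 10.09 and 10.15 in RESTko ES, 8.82, 9.20 and 8.98 in RESTko NP and 6.34, 6.61 and 6.44 in RESTko TN cells, and 10.40, 10.47 and 10.25 in RESTwt ES, 9.12, 9.40 and 9.39 in RESTwt NP and 6.82, 6.44 and 6.53 in RESThet TN cells. Its NP minus ES difference was -1.10 in RESTko (adjusted p = 1.15e-07) and -1.07 in RESTwt cells (adjusted p = 1.81e-07). No stage overlapped another for Cdt1. Cdc6 had NP minus ES differences of -0.79 and -0.47, both called, and TN minus NP differences of -2.17 in RESTko cells and -2.26 between RESThet TN and RESTwt NP cells.

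The 6 members of the MCM ring, the helicase that opens the fork, were lower in NP than in ES cells without overlap in either genotype. Over all genes 33.9% were called lower at this step in RESTko and 36.1% in RESTwt cells. The share of all genes without overlap is not given here. Mcm3 read 10.74, 10.73 and 10.71 in RESTko ES, 9.41, 9.83 and 9.71 in RESTko NP and 6.35, 7.27 and 6.70 in RESTko TN cells, with NP minus ES at -1.08 (adjusted p = 7.22e-05). The Mcm3 values were 10.76, 10.72 and 10.72 in RESTwt ES, 9.55, 9.97 and 9.79 in RESTwt NP and 7.38, 6.68 and 6.92 in RESThet TN cells, with NP minus ES at -0.96 in RESTwt cells. Its second step was the larger, -2.88 in RESTko cells. Mcm2 read 10.42, 10.38 and 10.48 in RESTko ES, 9.72, 10.10 and 9.93 in RESTko NP and 6.70, 7.39 and 7.04 in RESTko TN cells, and 10.41, 10.42 and 10.37 in RESTwt ES, 9.88, 10.17 and 10.07 in RESTwt NP and 7.62, 7.003 and 7.16 in RESThet TN cells. For Mcm2 the NP minus ES difference was called in RESTko cells (-0.51, adjusted p = 0.00882) and not in RESTwt cells (-0.36, adjusted p = 0.0523). Mcm4 stood at 10.07, 10.001 and 10.10 in RESTko ES, 8.90, 9.31 and 9.11 in RESTko NP and 6.37, 6.87 and 6.60 in RESTko TN cells, and at 10.05, 10.05 and 9.99 in RESTwt ES, 9.02, 9.40 and 9.31 in RESTwt NP and 7.15, 6.62 and 6.77 in RESThet TN cells. Mcm7 had the largest TN step of the ring: it read 6.52, 7.05 and 6.74 in RESTko TN against 10.07, 10.42 and 10.26 in RESTko NP cells, a difference of -3.48, and 7.75, 6.75 and 6.94 in RESThet TN against 10.10, 10.42 and 10.31 in RESTwt NP cells. Mcm7 read 10.64, 10.70 and 10.78 in RESTko and 10.61, 10.69 and 10.71 in RESTwt ES cells. Its first step was not called in RESTwt cells. The RESTko call of Mcm7 at that step was lost with the replicate block, with every probe set kept, with quantile normalization and without any 1 of several arrays. Mcm5 and Mcm6 had TN minus NP differences of -2.62 and -2.32 in RESTko cells.

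Fork and nucleotide supply genes split. Rrm2, the regulated subunit of ribonucleotide reductase that makes deoxynucleotides, had the largest TN step of all members in RESTko cells. It read 6.23, 7.18 and 6.74 in RESTko TN against 10.21, 10.49 and 10.34 in RESTko NP cells, a difference of -3.63 (SE 0.18, 12.4-fold lower), and 7.29, 6.73 and 6.93 in RESThet TN against 10.21, 10.46 and 10.62 in RESTwt NP cells. The ES arrays read 10.95, 10.87 and 10.93 in RESTko and 10.96, 10.96 and 10.98 in RESTwt cells. Rrm1, its partner subunit, did not pass at the first step: it read 10.54, 10.72 and 10.57 in RESTko NP against 10.71, 10.56 and 10.53 in RESTko ES cells (0.01, adjusted p = 0.938) and 10.51, 10.70 and 10.68 in RESTwt NP against 10.54, 10.54 and 10.48 in RESTwt ES cells (0.10, adjusted p = 0.336). Both its call and its direction changed with the scale: with median centring it was lower in RESTko (-0.33, adjusted p = 0.00336) and in RESTwt cells (-0.22, adjusted p = 0.0373), and with quantile normalization it was higher in RESTko (0.30, adjusted p = 0.00735) and in RESTwt cells (0.39, adjusted p = 0.000895). In TN cells Rrm1 was at 8.30, 8.71 and 8.47 in RESTko and 8.67, 8.56 and 8.60 in RESThet cells, a difference of -2.12 in the RESTko step. Pcna, the sliding clamp of DNA polymerase, read 11.16, 11.12 and 11.09 in RESTko ES, 10.77, 10.95 and 10.91 in RESTko NP and 8.73, 9.01 and 8.93 in RESTko TN cells, and 11.22, 11.16 and 11.12 in RESTwt ES, 10.93, 11.19 and 11.004 in RESTwt NP and 9.17, 8.79 and 9.03 in RESThet TN cells. Its first step was small (-0.25 in RESTko, adjusted p = 0.0338; -0.12 in RESTwt, adjusted p = 0.284) and its TN minus NP difference was -1.99 in RESTko cells. Pcna has 2 probe sets in this table with near-identical values (mean levels 10.348 and 10.347, first steps -0.250 and -0.254 in RESTko cells). Whether each of them reads Pcna alone was not checked, so its level is uncertain. Tyms, which makes thymidylate, read 8.45, 8.29 and 8.41 in RESTko ES, 7.45, 7.69 and 7.62 in RESTko NP and 5.91, 6.11 and 5.98 in RESTko TN cells, and 8.50, 8.49 and 8.33 in RESTwt ES, 7.67, 8.21 and 8.03 in RESTwt NP and 6.23, 6.15 and 6.01 in RESThet TN cells. Tyms fell at both steps, with differences of -0.80 and -1.59 in RESTko cells. Gins1, of the GINS complex that travels with the helicase, had differences of -0.83 and -2.84 in RESTko cells.

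The E cyclins, partners of the kinase that starts S phase, differed at the NP stage. Ccne1 read 10.09, 9.995 and 9.93 in RESTko ES, 8.41, 8.60 and 8.53 in RESTko NP and 7.02, 7.15 and 6.94 in RESTko TN cells, and 9.81, 9.83 and 9.76 in RESTwt ES, 8.22, 8.88 and 8.67 in RESTwt NP and 7.26, 7.09 and 6.91 in RESThet TN cells. It had the largest NP minus ES fall among S phase genes, -1.50 in RESTko (adjusted p = 7.95e-09) and -1.21 in RESTwt cells (adjusted p = 1.47e-07). Its TN step of -1.47 was among the smallest. Ccne2 read 6.83, 6.68 and 6.77 in RESTko ES, 6.75, 6.87 and 6.80 in RESTko NP and 5.08, 5.32 and 5.11 in RESTko TN cells, and 6.94, 6.94 and 6.60 in RESTwt ES, 6.94, 7.16 and 7.36 in RESTwt NP and 4.99, 5.03 and 4.97 in RESThet TN cells. NP minus ES for Ccne2 was 0.05 in RESTko (adjusted p = 0.725) and 0.33 in RESTwt cells (adjusted p = 0.0119), a call that median centring of the arrays ended and turned just below 0 (-0.001). In RESTko cells Ccne2 was lower with median centring (-0.30, adjusted p = 0.0204) and with quantile normalization (-0.25, adjusted p = 0.0369), so its first step has no settled direction in the larger table. Chek1, the kinase of the replication checkpoint, read 9.91, 9.76 and 9.83 in RESTko ES, 8.77, 9.15 and 9.04 in RESTko NP and 6.09, 6.71 and 6.25 in RESTko TN cells, and 9.88, 10.004 and 9.85 in RESTwt ES, 8.76, 9.10 and 9.19 in RESTwt NP and 6.85, 6.15 and 6.25 in RESThet TN cells. Its differences were -0.85 and then -2.63 in RESTko cells.

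Mitotic kinases and cyclins were also lower in TN cells throughout, with varied first steps. Cdk1, the kinase that brings cells into mitosis, read 9.47, 9.46 and 9.49 in RESTko ES, 8.91, 9.02 and 9.11 in RESTko NP and 5.87, 6.67 and 6.15 in RESTko TN cells. The other arrays read 9.499, 9.46 and 9.48 in RESTwt ES, 9.09, 9.39 and 9.25 in RESTwt NP and 6.73, 6.03 and 6.31 in RESThet TN cells. NP minus ES for Cdk1 was -0.46 in RESTko (adjusted p = 0.0207) and -0.24 in RESTwt cells (adjusted p = 0.215), and TN minus NP was -2.78 in RESTko cells. Its cyclin partners Ccna2 and Ccnb2 had TN minus NP differences of -2.88 and -2.88 in RESTko cells. Aurka, the spindle pole kinase, read 9.91, 9.89 and 9.85 in RESTko ES, 8.44, 8.70 and 8.57 in RESTko NP and 5.82, 6.37 and 6.14 in RESTko TN cells, and 9.87, 9.76 and 9.71 in RESTwt ES, 8.46, 8.89 and 8.75 in RESTwt NP and 6.45, 5.75 and 6.09 in RESThet TN cells. It had the largest first fall among mitosis genes (-1.31 in RESTko, adjusted p = 6.44e-07; -1.08 in RESTwt, adjusted p = 7.15e-06). Aurkb, the kinase of the chromosomal passenger complex, was not called at the first step: it read 9.02, 9.11 and 8.99 in RESTko NP against 9.03, 9.13 and 9.15 in RESTko ES cells (-0.07, adjusted p = 0.676) and 8.92, 9.04 and 9.11 in RESTwt NP against 9.01, 8.97 and 9.02 in RESTwt ES cells (0.02, adjusted p = 0.887). With median centring it was lower in RESTko (-0.41, adjusted p = 0.00649) and in RESTwt cells (-0.304, adjusted p = 0.0354). Aurkb then read 5.61, 6.08 and 5.90 in RESTko TN and 6.32, 5.64 and 6.10 in RESThet TN cells, a TN minus NP difference of -3.17 in RESTko cells. Its partners in that complex, Birc5 and Cdca8, had first steps of -0.90 and -0.42 and TN steps of -1.97 and -3.60 in RESTko cells. Birc5 read 8.21, 8.17 and 8.15 in RESTko ES, 7.10, 7.42 and 7.30 in RESTko NP and 5.001, 5.45 and 5.45 in RESTko TN cells, and 8.15, 8.22 and 8.16 in RESTwt ES, 7.45, 7.78 and 7.65 in RESTwt NP and 5.72, 5.01 and 5.24 in RESThet TN cells. Cdca8 read 8.998, 8.96 and 8.90 in RESTko ES, 8.46, 8.65 and 8.50 in RESTko NP and 4.74, 5.04 and 5.04 in RESTko TN cells, and 8.81, 8.61 and 8.50 in RESTwt ES, 8.16, 8.48 and 8.54 in RESTwt NP and 5.39, 4.54 and 5.09 in RESThet TN cells. Plk1 and Nek2, kinases of spindle and centrosome, had TN steps of -3.02 and -3.29 in RESTko cells. Nek2 read 5.42, 5.21 and 5.23 in RESThet TN against 8.29, 8.67 and 8.66 in RESTwt NP cells, a difference of -3.25, and 5.05, 5.53 and 4.91 in RESTko TN against 8.24, 8.58 and 8.55 in RESTko NP cells.

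The spindle checkpoint genes, which hold anaphase until chromosomes are attached, included the largest difference between RESThet TN and RESTwt NP cells. Bub1b read 10.35, 10.35 and 10.28 in RESTko ES, 9.10, 9.30 and 9.25 in RESTko NP and 5.33, 5.998 and 5.59 in RESTko TN cells. Bub1b was at 10.28, 10.22 and 10.16 in RESTwt ES, 9.25, 9.51 and 9.35 in RESTwt NP and 6.06, 5.38 and 5.61 in RESThet TN cells. Its TN step was -3.58 in RESTko (12.0-fold lower) and -3.69 between RESThet TN and RESTwt NP cells (12.9-fold lower). Ttk, the Mps1 checkpoint kinase, read 4.50, 5.09 and 4.50 in RESTko TN against 8.04, 8.26 and 8.18 in RESTko NP cells, a difference of -3.47, and 5.07, 4.53 and 4.74 in RESThet TN against 8.003, 8.35 and 8.23 in RESTwt NP cells, a difference of -3.42. Bub1 had a wide spread in TN cells: 5.59, 6.90 and 5.96 in RESTko and 7.01, 5.95 and 6.402 in RESThet cells, against 9.37, 9.58 and 9.45 in RESTko NP and 9.42, 9.60 and 9.68 in RESTwt NP cells. In ES cells Bub1 read 10.31, 10.17 and 10.22 in RESTko and 10.40, 10.39 and 10.25 in RESTwt arrays. Cdc20, which activates the anaphase-promoting complex, had the smallest TN step among mitosis genes, -1.85 in RESTko cells. It read 9.22, 9.20 and 9.34 in RESTko ES, 7.86, 8.10 and 8.11 in RESTko NP and 6.02, 6.37 and 6.12 in RESTko TN cells, and 8.99, 8.88 and 8.93 in RESTwt ES, 7.96, 8.37 and 8.12 in RESTwt NP and 6.68, 5.98 and 6.28 in RESThet TN cells. NP minus ES for Cdc20 was -1.23 in RESTko (adjusted p = 4.84e-07) and -0.79 in RESTwt cells (adjusted p = 9.87e-05).

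Kinetochore, condensin and chromosome genes closed the list. Cenpe, a kinetochore motor, read 8.94, 8.85 and 8.89 in RESTko ES, 8.39, 8.50 and 8.46 in RESTko NP and 4.90, 5.36 and 5.19 in RESTko TN cells, and 8.71, 8.67 and 8.49 in RESTwt ES, 8.39, 8.58 and 8.56 in RESTwt NP and 5.44, 5.26 and 5.24 in RESThet TN cells. Its TN steps had the smallest adjusted p of the mitosis genes in both comparisons, at -3.301 and -3.19. Cenpa, the centromeric histone, read 8.84, 9.02 and 8.97 in RESTko NP against 9.19, 9.13 and 9.26 in RESTko ES cells (-0.25, adjusted p = 0.151), and its TN arrays read 5.95, 6.57 and 6.31 in RESTko and 6.77, 6.10 and 6.53 in RESThet cells. Ncapg, a condensin subunit, read 5.42, 6.09 and 5.59 in RESTko TN against 9.05, 9.30 and 9.19 in RESTko NP cells (-3.48) and 6.49, 5.87 and 5.89 in RESThet TN against 9.12, 9.31 and 9.24 in RESTwt NP cells (-3.14). Its condensin partner Smc2 had TN steps of -2.60 and -2.68, and Ect2, which sets up the cleavage furrow, of -3.03 and -3.14. Top2a, which untangles sister chromatids, was not called at the first step either. It read 10.90, 10.79 and 10.80 in RESTko ES, 10.53, 10.57 and 10.53 in RESTko NP and 6.91, 7.83 and 7.25 in RESTko TN cells, and 10.94, 10.86 and 10.78 in RESTwt ES, 10.55, 10.62 and 10.70 in RESTwt NP and 8.25, 7.48 and 7.55 in RESThet TN cells. NP minus ES for Top2a was -0.28 in RESTko (adjusted p = 0.188) and -0.23 in RESTwt cells (adjusted p = 0.276), before a TN step of -3.21 in RESTko cells. Mki67, the Ki-67 antigen that coats mitotic chromosomes and marks cycling cells, was the mitosis gene called higher in RESTwt NP than in RESTwt ES cells. It read 9.54, 9.32 and 9.51 in RESTko ES, 9.61, 9.69 and 9.64 in RESTko NP and 6.21, 6.80 and 6.45 in RESTko TN cells, and 9.39, 9.33 and 9.06 in RESTwt ES, 9.67, 9.77 and 9.77 in RESTwt NP and 6.98, 6.76 and 6.68 in RESThet TN cells. NP minus ES for Mki67 was 0.19 in RESTko (adjusted p = 0.193, not called) and 0.48 in RESTwt cells (adjusted p = 0.00265, called). Median centring ended the RESTwt call (0.15, adjusted p = 0.270), and quantile normalization made the RESTko difference a call (0.37, adjusted p = 0.00766).

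**Figure D4:**
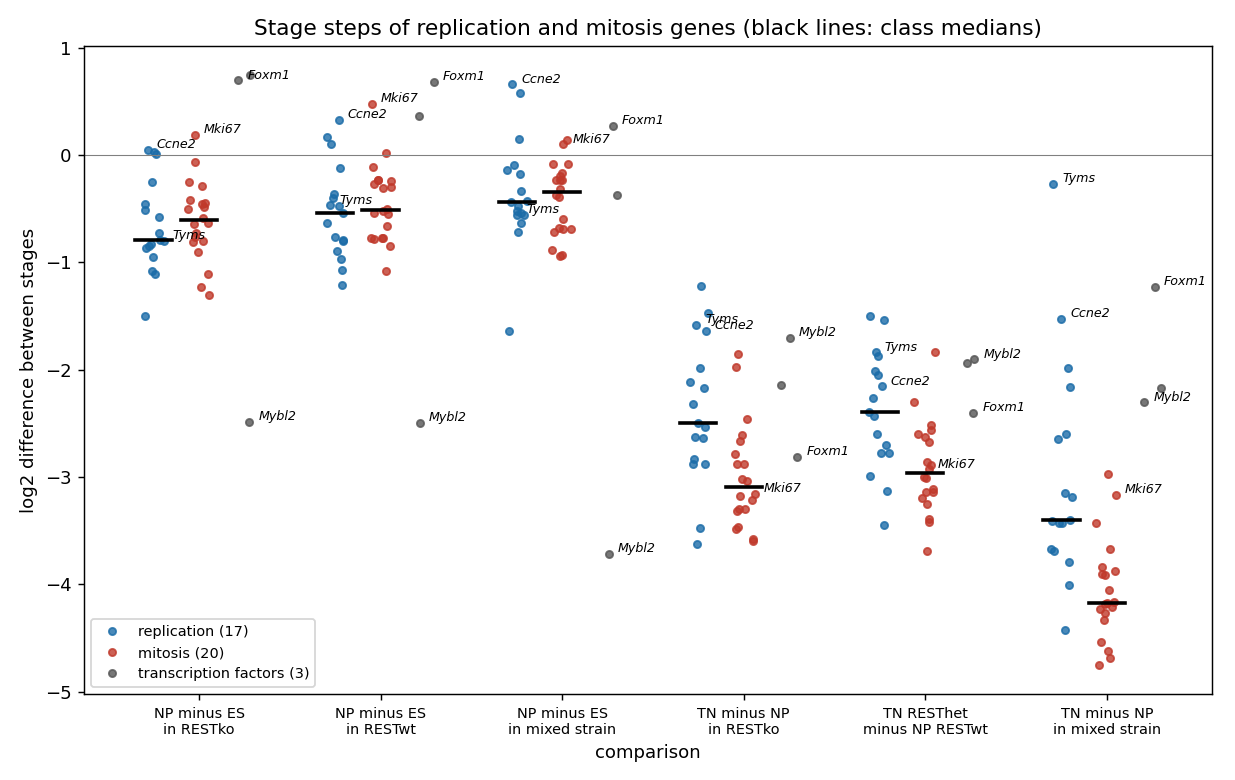
Log2 differences of each measured member for the step from ES to NP cells and the step from NP to TN cells, by background, with S phase (replication) genes in blue, mitosis genes in red and the transcription factors in grey; black lines are the S phase and mitosis medians. Apart from Mybl2, first steps lie between -1.64 and 0.74, and every second step lies below 0.

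The mixed-strain wildtype cells, with other arrays and 2 arrays a stage, gave the same 2 steps with their own numbers. At the step to NP cells 13 members were called lower (19.0% of all genes) and 2 higher (19.9% of all genes), with a median of -0.38. These 15 calls became 5 without ES array a, 6 without ES array b, 9 without NP array a and 6 without NP array b, fits in which the lone array is assumed to vary like the other groups. At the step to TN cells 39 of 40 were called lower (29.1% of all genes), with a median of -3.68 and a range from -4.75 for Aurka to -0.27 for Tyms. Class medians of the second step were -4.17 for mitosis and -3.40 for S phase genes, a gap of -0.77 that ranged from -1.03 to -0.76 over 15 alternative settings. Median centring and leaving out an ES array, which are among these settings, cannot move this gap. The mitosis average minus the S phase average read 0.38 and 0.41 in ES, 0.39 and 0.28 in NP and -0.54 and -0.91 in TN cells. Levels of the 2 tables come from different probes and were normalized separately, so they are not set against each other.

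Mybl2 again had the largest first fall in the mixed-strain cells. It read 10.22 and 10.22 in ES, 6.56 and 6.45 in NP and 4.15 and 4.26 in TN cells, with NP minus ES at -3.71 (SE 0.13, adjusted p = 1.83e-07, 13.1-fold lower). Foxm1 read 6.35 and 6.41 in ES, 6.78 and 6.52 in NP and 5.38 and 5.47 in TN cells, and its first step did not pass (0.27, adjusted p = 0.166). E2f1 read 7.46 and 7.28 in ES, 6.87 and 7.13 in NP and 5.21 and 4.46 in TN cells, with a first step of -0.37 (adjusted p = 0.271), of the other sign from the larger table and not called. The 2 members called higher were Ccne2, at 3.84 and 3.78 in ES, 4.41 and 4.53 in NP and 3.15 and 2.72 in TN cells (0.66, adjusted p = 0.0114), and Rrm1 (0.58, adjusted p = 0.0129). Ccne2 lay close to the array medians in ES cells (3.83) and under them in TN cells (3.94 to 3.95). Its direction therefore rests on low signals. Ccne1, with a related role, read 9.58 and 9.55 in ES, 7.88 and 7.97 in NP and 5.99 and 5.89 in TN cells. Its first step had the other sign from that of Ccne2 (-1.64, adjusted p = 1.39e-05).

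Most S phase genes of the mixed-strain cells had the larger difference at the second step. Mcm3 read 10.04 and 10.05 in ES, 9.40 and 9.42 in NP and 4.76 and 5.21 in TN cells, with the largest TN step of the class (-4.42). Mcm2 read 10.72 and 10.70 in ES, 10.34 and 10.22 in NP and 6.65 and 5.90 in TN cells. Mcm5 read 10.76 and 10.71 in ES, 9.93 and 10.09 in NP and 6.83 and 6.34 in TN cells. Mcm7 did not pass at the first step (11.83 and 11.86 in ES, 11.72 and 11.68 in NP, 9.38 and 8.82 in TN cells; first step -0.14, adjusted p = 0.616). Gins2, small in its TN step in the larger table, was among the largest here, with 8.49 and 8.43 in ES, 8.38 and 8.36 in NP and 4.53 and 4.62 in TN cells and a TN step of -3.79. Pcna read 12.08 and 12.02 in ES, 12.11 and 12.28 in NP and 10.09 and 9.97 in TN cells. Rrm2 read 10.54 and 10.61 in ES, 10.35 and 10.45 in NP and 7.32 and 6.10 in TN cells. Tyms was the member not called at the TN step: it read 4.09 and 3.75 in ES, 3.29 and 3.43 in NP and 3.03 and 3.16 in TN cells, under the array medians of 3.83 to 3.95 apart from 1 ES array (adjusted p = 0.198). A further Tyms probe set of similar mean level (3.31 against 3.46) was called lower at that step (-0.68, adjusted p = 0.00272 by limma). The remaining Tyms probe sets were not called, so the exception depends on the probe set.

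Mitosis genes of the mixed-strain cells ran at the TN step from -4.75 for Aurka to -2.97 for Smc2. The TN array medians were 3.94 to 3.95, and Nek2 (3.62 and 3.43) and Ect2 lay under them in TN cells. So did TN array b for Aurkb, Bub1 and Ncapg. How far such low signals limit the size of a TN step was not tested. Aurka read 9.85 and 9.87 in ES, 9.32 and 9.22 in NP and 4.91 and 4.13 in TN cells. Bub1 read 9.84 and 9.92 in ES, 9.03 and 8.86 in NP and 4.69 and 3.83 in TN cells. Bub1b read 10.30 and 10.09 in ES, 9.37 and 9.25 in NP and 5.19 and 5.01 in TN cells. Ttk read 9.31 and 9.22 in ES, 9.05 and 9.09 in NP and 4.71 and 4.20 in TN cells. These 3 checkpoint genes each lost over 4 log2 units at the TN step. Ncapg read 9.54 and 9.23 in ES, 8.85 and 8.56 in NP and 4.57 and 3.76 in TN cells. Ccnb2 read 10.72 and 10.72 in ES, 10.07 and 9.93 in NP and 5.98 and 5.36 in TN cells. Ect2, active in cytokinesis, read 8.42 and 8.72 in ES, 7.88 and 7.40 in NP and 3.78 and 3.03 in TN cells. Cdc20 read 11.05 and 11.15 in ES, 10.45 and 10.37 in NP and 7.47 and 6.50 in TN cells. Smc2 read 10.14 and 9.83 in ES, 9.65 and 9.53 in NP and 6.86 and 6.38 in TN cells, the smallest TN step of the class. The genes with the smallest first steps were Top2a (11.61 and 11.57 in ES, 11.60 and 11.42 in NP and 8.06 and 6.87 in TN cells), Aurkb (7.95 and 8.07 in ES, 7.96 and 7.88 in NP and 4.03 and 3.46 in TN cells) and Mki67 (10.22 and 10.13 in ES, 10.23 and 10.32 in NP and 7.47 and 6.75 in TN cells). Their first steps were -0.08, -0.09 and 0.10, and none was called. The smaller table holds 59 other probe sets for 31 members, and at the TN step 44 of them were called lower and 0 higher by limma, with a median of -2.41. Foxm1's other probe sets had TN differences of -2.60, -1.09 and 0.14, so its size there depends on the probe set. At the step to NP cells 23 of the 59 were called lower and 1 higher, with a median of -0.38. There a second Top2a probe set was called lower (-0.64, adjusted p = 0.0187 by limma), and a second one of Bub1 stood at 0.40, not called. Averaging the probe sets of each gene ended 5 calls of that step and gained 7, so its calls depend on the probe set.

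Within the TN stage the arrays differed from each other in the same genes. RESTko array b (-1.75) and RESThet array a (-1.58) had the highest member averages of their groups. Top2a shows it: RESTko array b read 7.83 against 6.91 and 7.25 on RESTko arrays a and c, and RESThet array a read 8.25 against 7.48 and 7.55 on RESThet arrays b and c. The average of 8 ES markers was also highest on these arrays, at -2.33, -1.23 and -1.96 on RESTko arrays a to c and -1.06, -2.64 and -1.85 on RESThet arrays a to c. In NP cells array a was lowest in both measures, with ES markers at -1.93, -0.83 and -0.93 in RESTko and -1.45, -0.49 and -0.63 in RESTwt cells. The part of these arrays in the genotype results was not tested beyond leaving the 2 TN arrays out. Without them all 40 members remained called lower in both TN steps.

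Few members passed the test between genotypes. In ES cells 1 of 40 was called (9.24% of all genes were), in NP cells 2 (8.03% of all genes) and in TN cells 1 (1.16% of all genes), all 4 calls lower in RESTko. Unadjusted p was under 0.05 for 4, 7 and 8 of the 40 members, against 4302, 3841 and 2342 of all 19938 genes. Leaving out single arrays gave 0 or 1 call in ES, 1 to 4 in NP and 0 or 1 in TN cells. The median difference was 0.01 in ES, -0.08 in NP and -0.14 in TN cells, with 35 of 40 members below 0 in NP and 34 in TN cells, against medians over all genes of -0.03, 0.01 and -0.02. The share of all genes below 0 is not given here. The member average varied between arrays of a group, from 0.52 to 0.76 in RESTko NP and from -2.09 to -1.58 in RESThet TN cells. These signs are therefore not independent observations. The 95% interval of the difference lay within 0.5 log2 units (1.41-fold) either way for 33 members in ES, 29 in NP and 24 in TN cells, and within 1 log2 unit for all 40 at each stage. Markers of other cells differed between the same arrays: of 10 neuronal markers 6 were higher in RESTko ES and 8 in RESTko NP cells and 1 was lower in RESTko TN cells, and of 7 fibroblast and smooth muscle markers 2 were higher in RESTko ES and 4 lower in RESTko NP cells (median -0.79), with none called in TN cells. Their part in the members' values was not tested.

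**Figure D5:**
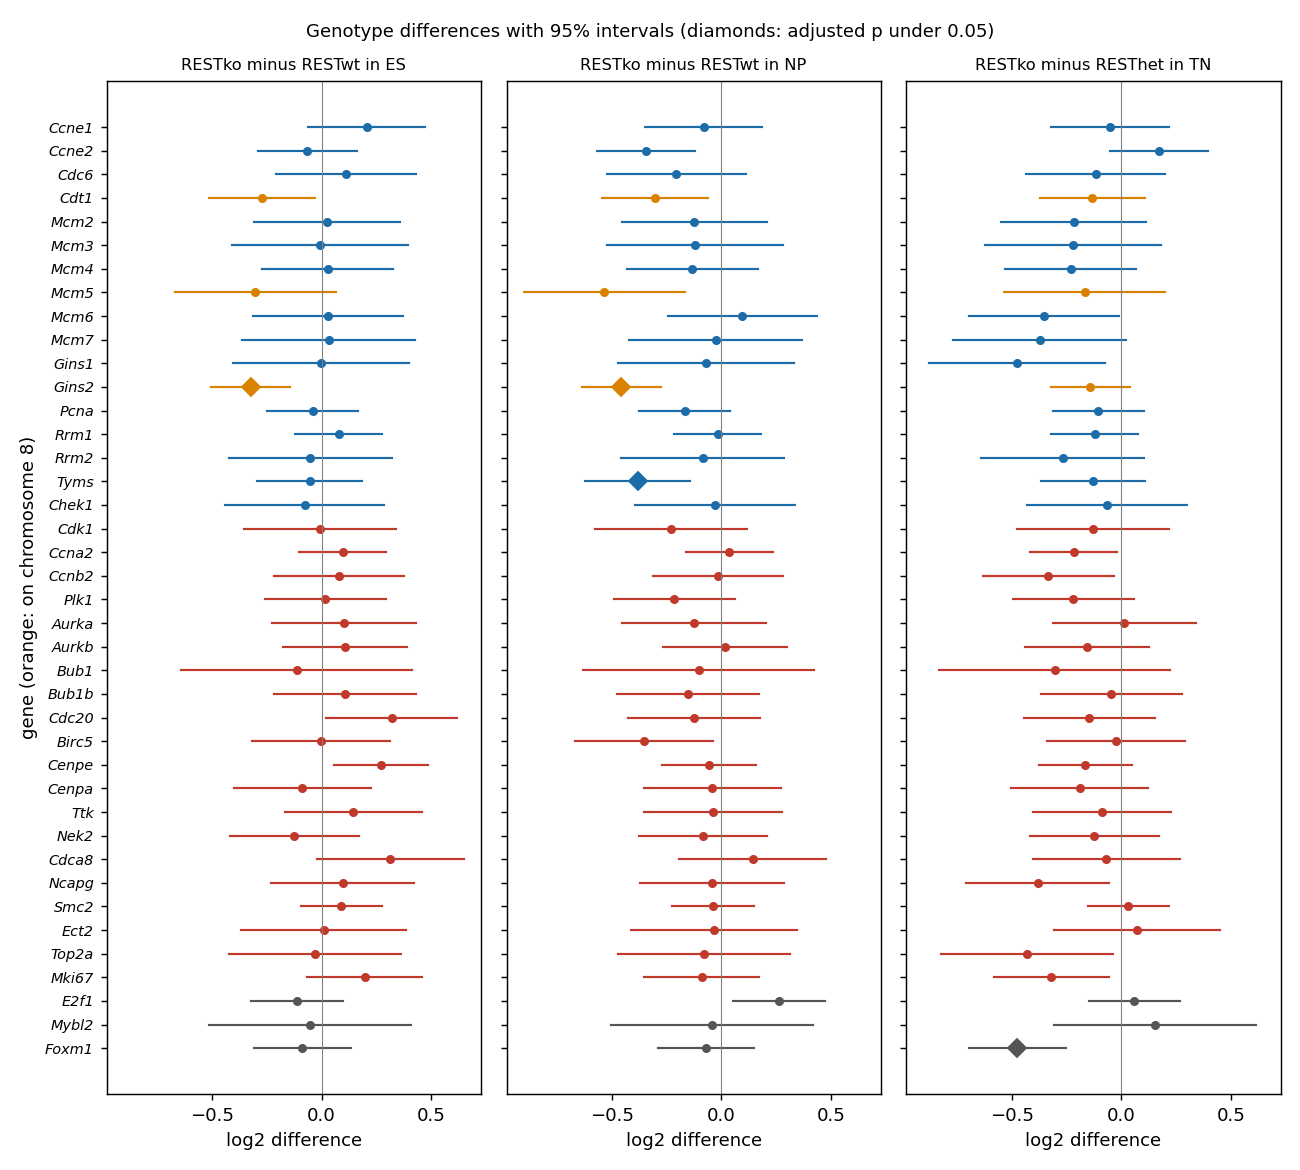
Log2 difference of RESTko minus RESTwt (ES, NP) or RESThet (TN) for each measured member, blue for S phase, red for mitosis, grey for regulators and orange for the members on chromosome 8. Diamonds mark adjusted p under 0.05: Gins2 in ES cells, Gins2 and Tyms in NP cells, Foxm1 in TN cells.

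Gins2, a GINS subunit, was lower in RESTko cells at 2 stages. It read 7.51, 7.57 and 7.70 in RESTko against 7.94, 7.98 and 7.83 in RESTwt ES cells (-0.32, SE 0.09, adjusted p = 0.0221). In NP cells it read 7.44, 7.70 and 7.74 in RESTko against 7.99, 8.05 and 8.22 in RESTwt arrays (-0.46, adjusted p = 0.00259). TN arrays read 6.38, 6.44 and 6.41 in RESTko and 6.59, 6.50 and 6.55 in RESThet cells (-0.14, adjusted p = 0.577). The genotypes did not overlap at any stage. Without RESTko ES array a or b, or RESTwt ES array a or b, the ES call was lost (adjusted p = 0.105, 0.0721, 0.0590 and 0.0936), and fitting the NP groups alone ended the NP call (adjusted p = 0.0665).

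Gins2 lies on chromosome 8, as do Mcm5 and Cdt1. The 747 genes of chromosome 8 left after the dimmest 30% of all genes were dropped had a median RESTko difference of -0.21 in ES and -0.24 in NP cells, where the other autosomes ran from -0.02 to 0.03 and from 0.01 to 0.05, and 32.7% and 39.0% of them were called lower. In TN cells the chromosome 8 median was -0.05, within the other autosomes (-0.06 to 0.001), and 1.07% were called lower. Mcm5 read 8.75, 9.16 and 9.03 in RESTko against 9.26, 9.73 and 9.55 in RESTwt NP cells (-0.53, adjusted p = 0.0732; called in 7 alternative settings, adjusted p from 0.0137 to 0.0482), and 9.76, 9.84 and 9.93 in RESTko against 10.15, 10.16 and 10.12 in RESTwt ES cells (-0.30, adjusted p = 0.349). Its TN arrays read 6.10, 6.69 and 6.28 in RESTko and 6.94, 6.14 and 6.49 in RESThet cells. Cdt1, with array values given above, differed by -0.27 in ES (adjusted p = 0.170) and -0.30 in NP cells (adjusted p = 0.131). All 3 genes were below 0 at each stage. Of the 37 members on other chromosomes, limma called 0 in ES cells (2 at an unadjusted p under 0.05), 1 in NP cells and 1 in TN cells. Whether the chromosome 8 shift has a part in the Gins2 result was not tested.

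Tyms was the NP call outside chromosome 8. It read 7.45, 7.69 and 7.62 in RESTko against 7.67, 8.21 and 8.03 in RESTwt NP cells (-0.38, SE 0.11, adjusted p = 0.0463). The groups overlapped through RESTwt array a, and 20 alternative settings ended the call, among them the fit without RESTwt NP array b (-0.26, adjusted p = 0.260) and without RESTko NP array a (adjusted p = 0.215). Ccne2 came next, with RESTko NP arrays all below RESTwt NP arrays (-0.35, adjusted p = 0.0555, and called in 6 alternative settings) and RESTko TN arrays all above RESThet TN arrays (0.17, adjusted p = 0.583). Foxm1 was the TN call: 5.31, 5.52 and 5.27 in RESTko against 6.01, 5.70 and 5.83 in RESThet TN cells (-0.48, SE 0.11, adjusted p = 0.0335, 1.39-fold lower). Every RESTko TN array lay below every RESThet TN array for Foxm1, but the call was lost in 10 settings, with adjusted p between 0.0517 and 0.245. Without the 2 TN arrays that stood high in ES markers it was 0.0821, and without RESThet array a, RESThet array c, RESTko array a or RESTko array c it was 0.127, 0.0851, 0.120 and 0.143. Mki67 and Top2a, the usual proliferation markers, differed by -0.32 (adjusted p = 0.294) and -0.43 (adjusted p = 0.365) in TN cells, and Cdc20 by 0.32 in ES cells (adjusted p = 0.198).

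Tests of the change in the RESTko effect between stages called no member. From ES to NP cells limma called 0 of 40 (4.87% of all genes), with 3 at an unadjusted p under 0.05 (3384 of all 19938 genes). The members ran from -0.45 for Cdc20 to 0.38 for E2f1. From NP to TN cells limma called 0 of 40 (3.91% of all genes), with 3 at an unadjusted p under 0.05 (3488 of all 19938 genes). Here the members ran from -0.45 for Mcm6 to 0.52 for Ccne2 (adjusted p = 0.0650). The test from NP to TN cells sets RESThet TN against RESTwt NP cells on the control side. These comparisons share arrays with the stage steps and with each other, so their counts are not independent.

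Genes of the same pathways outside the members were counted from lists of known function. At the TN step 29.2% of all genes were lower and 41.8% higher in RESTko cells, 29.9% and 43.2% between RESThet TN and RESTwt NP cells, and 29.1% and 21.7% in mixed-strain cells. Of 39 origin and fork genes, 36 were lower in RESTko TN than in RESTko NP cells, 38 in RESThet TN than in RESTwt NP cells, and 37 of 38 in the mixed-strain cells, with none higher. Uhrf1, which brings maintenance methylation to replicated DNA, had the largest fall in the larger table (-3.67 and -3.55). All 41 spindle, kinetochore and cytokinesis genes were lower at the TN step in all 3 comparisons, with Cep55, of the abscission machinery, at -3.71, -3.57 and -4.97. The 17 E2F, pocket protein and MuvB genes were not uniform: 15, 14 and 12 were lower and 2, 2 and 1 higher, and Rbl2, the p130 pocket protein of resting cells, was higher in all 3 (0.85, 0.96 and 1.09). Of 14 anaphase-promoting complex genes, 9, 9 and 7 were lower and 2, 3 and 1 higher, with the inhibitor Fbxo5 at -2.41, -2.24 and -2.84.

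At the step to NP cells, 30 of the 39 origin and fork genes were lower in RESTko cells with none higher, 29 lower and 2 higher in RESTwt cells, and 24 of 38 lower and 1 higher in mixed-strain cells. Of the 41 spindle genes 25 were lower and 2 higher in RESTko, 21 lower and 4 higher in RESTwt, and 15 lower and 1 higher in mixed-strain cells. Over all genes 33.9% were lower and 32.2% higher in RESTko, 36.1% and 31.0% in RESTwt, and 19.0% and 19.9% in mixed-strain cells. The 17 E2F, pocket protein and MuvB genes gave 5, 4 and 3 lower and 7, 7 and 4 higher calls. Rb1, the founding pocket protein, was among the higher ones (0.82, 1.28 and 1.198).

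G1 genes were lower in TN cells as the members were. All 8 G1 cyclins, kinases and their activators were lower at the TN step in the 3 comparisons, with Ccnd1 at -2.47, -2.73 and -3.75. At the step to NP cells 5 of the 8 were lower and 2 higher in RESTko, 3 lower and 3 higher in RESTwt, and 1 lower and 4 higher in mixed-strain cells. Ccnd2, cyclin D2, was higher in NP than in ES cells by 4.99 in RESTko, 5.36 in RESTwt and 5.78 in mixed-strain cells, and its TN minus NP differences were then -1.80, -1.63 and -3.64. The CDK inhibitor Cdkn1c, which encodes p57, was higher in NP cells by 3.85, 3.21 and 3.32, with TN minus NP differences of -2.71, -1.20 and -2.32. Of the 6 CDK inhibitors measured on the larger table, 3 were lower and 1 higher in RESTko TN than in RESTko NP cells, and 4 lower and 1 higher between RESThet TN and RESTwt NP cells. Cdkn2d, the p19 inhibitor, was the higher one (0.38 and 0.45). The phosphatase gene Cdc25b was higher in NP than in ES cells by 2.88 in RESTko and 2.06 in RESTwt cells.

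Between genotypes the origin and fork list gave 2 lower calls in ES and 3 in NP cells, with none in TN cells. Over all genes 4.05% were lower and 5.19% higher in RESTko ES, 3.71% and 4.32% in RESTko NP, and 0.802% and 0.356% in RESTko TN cells. The origin and fork calls were Orc6 (-0.42, adjusted p = 0.00600) and Gins4 (-0.28, adjusted p = 0.0379) in ES cells, and Gins3 (-0.49, adjusted p = 0.00571), Gins4 (-0.45, adjusted p = 0.00173) and Orc6 (-0.31, adjusted p = 0.0458) in NP cells. All 3 genes lie on chromosome 8, the chromosome with the shift given above. Among the 41 spindle genes 1 was higher in ES, 1 higher in NP and 2 lower in TN cells, and among the 17 E2F, pocket protein and MuvB genes 1 was higher and 2 lower in ES and 2 lower in NP cells. Cdkn1c was higher in RESTko by 0.61 in ES (adjusted p = 0.00384) and 1.26 in NP cells (adjusted p = 4.94e-06), while Cdkn2a was lower in ES cells (-0.48, adjusted p = 0.00242). Cdc25b was higher in RESTko by 0.66 in NP cells (adjusted p = 0.000339), and Ccnd1 was lower, with differences of -0.48, -0.87 and -0.61 in ES, NP and TN cells. Of the spindle list, Racgap1 (-0.34, adjusted p = 0.0430) and Pttg1 (-0.49, adjusted p = 0.0438) were lower in RESTko than in RESThet TN cells.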

How the data were processed

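Each array gave log2 probe set signals, which the authors deposited as 2 tables, 18 arrays on one Affymetrix platform and 6 on the other. Per the submitters' processing notes, oligo 1.14.0 was used. Which background correction, summarization or normalization it ran is not given here. The tables held 35556 and 45101 probe sets, of which 21789 and 34958 carried a single gene symbol after older symbols were updated, 1621 and 932 several and 12146 and 9211 none. Per gene the single-symbol probe set with the highest mean was kept. limma 3.58.1 in R 4.3.3 fitted group means to all arrays of a table, 2-sided, with Benjamini-Hochberg adjustment over all genes and calls at an adjusted p under 0.05; the fits were tested on simulated data. The members and lists were chosen with earlier results of these data known. Named with array values are the called members of each genotype comparison, the 4 largest and 3 smallest differences of each class at each stage step, 8 fixed genes and those on chromosome 8; of other lists, up to 4 called genes. Samples were grouped by their labels. Replicate letters were not taken as pairs, since not every pair's correlation was over 0.1 (-0.26 to 0.40). Promoter windows came from RefSeq (GRCm38.p6). Alternatives were other scalings, probe set rules, array weights, left-out arrays and a replicate block.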

Additional observations from a re-analysis of the deposited data

How the results depend on the processing

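All 40 members stayed called lower in both TN steps of the larger table, and 39 in the mixed-strain cells, under each alternative run. The first step gave 29 to 39 calls in RESTko cells (33 as reported) and 23 to 36 in RESTwt cells (27 as reported). In mixed-strain cells its 15 calls became 26 with median centring and 5 to 22 with 1 array left out. Between genotypes the counts were small and moved with most choices. The ES count of 1 became 3 with array weights and 3 with the compared groups fitted alone, and 0 without the members on chromosome 8; leaving out an array gave 0 to 1. The NP count of 2 became 0 with the compared groups alone, 1 with every probe set kept, 4 with median centring, 4 with quantile normalization and 1 without the members on chromosome 8; leaving out an array gave 1 to 4. The TN count of 1 became 0 with the compared groups alone, every probe set kept, median centring, or the 2 TN arrays highest in ES markers left out, and leaving out an array gave 0 to 1. With the replicate block the TN count was 0, also in the fit of the compared groups alone (0), and the Foxm1 adjusted p was 0.0529. The block gave 32 calls at the first step in RESTko, 27 in RESTwt and 16 in mixed-strain cells and changed no other count by over 1.5 times. With the block and the compared groups alone the called genes changed between genotypes. Gins2 was lost and Cdc20 gained in ES cells, and Tyms was lost and Birc5 and Mcm5 gained in NP cells. The change of the RESTko effect from NP to TN cells had 0 calls, 1 with array weights, 1 without the dimmest 30% of genes, 1 with median centring and 2 with quantile normalization; 1 array left out gave 0 to 1, as it did for the change from ES to NP cells. Among member values called in either setting, signs turned at the first step only. With median centring they turned in RESTko cells for Ccne2 (-0.299), Gins2 (-0.311) and Rrm1 (-0.335), and in RESTwt cells for Aurkb (-0.304), Ccne2 (-0.000999675) and Rrm1 (-0.223). With quantile normalization they turned in RESTko cells for Ccne2 (-0.255) and Pcna (0.0023). Of the other values of the 40 members over all comparisons and alternatives, 11195 kept their side of the threshold, 110 lost a call and 125 gained one. Fitting the block with the compared groups alone, leaving out the 2 TN arrays and the class gap were chosen after seeing the data. The causes were not tested. The number of arrays, 2 or 3 a group, limits the precision, and signal over background is not given in the files.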
